A study of Ambystoma mexicanum with 12 samples.

Results

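The genes described here encode the collagens, laminins and integrins of the regenerating axolotl forelimb, with a few matrix proteins that bind them. They were chosen by gene symbol, with earlier results of these data known. The rule took any COL symbol with a number, an A and a number, any LAMA, LAMB or LAMC, ITGA or ITGB symbol with a number, and NID2, FN1, SPARC, TNC, POSTN, LUM and BGN. This gave 58 of the 8639 named genes on the array: 29 collagens, 9 laminins, 13 integrin subunits and 7 further matrix genes. They are read by 84 probe sets (groups of probes that target a transcript) of the 20035 tested. For the 19 genes with several probe sets, the one of highest mean over all samples stands for the gene.

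After amputation, a wound epidermis closes the stump, and dividing cells gather beneath it as the blastema, which rebuilds the limb. Collagen chains assemble as triple helices into fibrils, into beaded filaments or into the network of the basement membrane, the sheet under an epithelium that laminin trimers and nidogens also build. Integrins are receptors of an alpha and a beta subunit that tie cells to these proteins and signal from them. Fibronectin, tenascin-C and periostin are matrix proteins known for their presence in regenerating and wounded tissue.

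The animals were juvenile axolotls (Ambystoma mexicanum) of 8.8 cm total length amputated at the distal end of the zeugopod, the lower part of the forelimb. From day 7 to day 14 they were kept in DMSO, the vehicle, in retinoic acid (RA, the ligand of the retinoic acid receptors), or in LE135, by general knowledge an antagonist of retinoic acid receptor beta. The drug doses are not given in the sources used here. Blastemas with as little stump as could be had were taken on day 14 from 16 animals per treatment, and each of the 4 samples of a treatment pooled 1 forelimb from each of 4 animals, so every array averages 4 animals. Per the design text, DMSO limbs go on to regenerate normally, RA limbs duplicate proximodistal structures and LE135 limbs end truncated; the comparisons ask how the transcripts of these blastemas differ beforehand.

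The arrays held both layers of the blastema. Of the listed epidermal markers 7 of 9 were measured, at levels from 8.58 to 14.38 on the log2 scale, and of the connective tissue markers 5 of 7, at 4.11 to 9.54. A pair of pools stood apart. DMSO 4 correlated with the rest of its group at a mean of 0.978 and LE135 4 at 0.986, against 0.989 to 0.995 for the other 10 pools, so each difference was also fitted over the other 10 pools. There the difference from DMSO turned its sign for 9 of the 58 members and moved by over 1.5 times for 22 under RA, and for 11 and 27 under LE135. RA minus LE135 turned for 7 and moved by over 1.5 times for 21. Values over the other 10 pools are given beside the members' differences that moved in this way, apart from some under 0.1 in both fits. Array minima lay between 3.05 and 3.15, and 12 members whose mean was under 5 in every group are called dim, and 46 were above that in some group. Levels depend on the probes and are not compared between genes. In whole tissue, fewer cells of a type and less RNA per cell cannot be told apart.

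Under RA 3 of the 58 members rose relative to DMSO and none fell, with adjusted p under 0.05 over all 20035 probe sets (limma, Benjamini-Hochberg). They were COL24A1, a fibril-forming collagen, and ITGA2 and ITGA11, alpha subunits of integrins that bind collagen. That is 5.17% of the members, against 2.64% of all probe sets called in either direction and 1.62% called higher. Under LE135 no member passed relative to DMSO, where 2.09% of all probe sets were called and 8 members had an unadjusted p under 0.05 (13.8%, against 13.3% of all probe sets). No member passed between RA and LE135, where 0.02% of all probe sets did. There 8 members, all higher in RA, had an unadjusted p under 0.05 (13.8%, against 7.67% of all probe sets in either direction). Without DMSO 4 and LE135 4 such members, in either direction, numbered 17 (29.3%, against 12.4%). Under LE135 relative to DMSO they numbered 10 in that fit (17.2%, against 20.9%). Over the 3 treatments together, the F test called COL24A1 alone (1.72% of members, against 2.68% of all probe sets).

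Counted over all 58 members, the called ones included, more lay above than below their DMSO level under RA. The log2 difference was above 0 for 41 of 58 members (70.7%, against 46.9% of all probe sets) with a median of 0.14, against -0.01 over all probe sets. It was above 0, without DMSO 4 and LE135 4, for 32 of 58 (55.2%, against 49.3%) with a median of 0.08, and with arrays weighted by their spread the median was 0.06. An unadjusted p under 0.05 was reached by 18 members under RA (31%, against 14.9% of all probe sets), and 10 differed by over 1.5-fold (17.2%, against 4.24%). The same counts over the other 10 pools were 20 (34.5%, against 23.7%) and 8 (13.8%, against 3.39%). Under LE135 the difference was above 0 for 30 of 58 (51.7%, against 52.3%) with a median of 0.00, against 0.01 over all, and exceeded 1.5-fold for 4 (6.9%, against 3.11%). Over the other 10 pools it was above 0 for 23 of 58 (39.7%, against 53.4%) with a median of -0.03. RA was above LE135 for 44 of 58 (75.9%, against 46%) with a median of 0.18, against -0.01, and by over 1.5-fold in either direction for 5 (8.62%, against 1.72%). Over the other 10 pools it was above for 41 of 58 (70.7%, against 47.2%) with a median of 0.13. The RA and LE135 comparisons share the DMSO pools, and the comparison of RA with LE135 shares its pools with both. The typical standard error of a member's difference was 0.15, which gives a 95% interval of 0.33 on either side.

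Pools without overlap between treatments were read in the same way. RA and DMSO pools did not overlap for 10 members (17.2%, against 11.3% of all probe sets), 9 of them higher under RA (15.5%, against 5.54% of all probe sets) and 1 lower, COL2A1. The 9 were COL1A1, COL1A2, COL24A1, COL6A2, COL6A3, ITGA2, ITGA11, SPARC and TNC. RA and LE135 pools did not overlap for 10 members (17.2%, against 6.93%). The 9 higher in RA (15.5%, against 3.75%) were COL1A2, COL3A1, COL5A1, COL11A1, COL24A1, COL12A1, ITGA6, FN1 and TNC, and the 1 lower was the dim COL22A1. By the probe sets that stand for the genes, LE135 and DMSO pools overlapped for all 58, while 7.53% of all probe sets did not overlap. In a lower probe set of COL1A1 (mean level 13.59) all LE135 pools lay above all DMSO pools. In a lower probe set of COL7A1 (mean level 5.62) they lay below them.

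**Figure D1:**
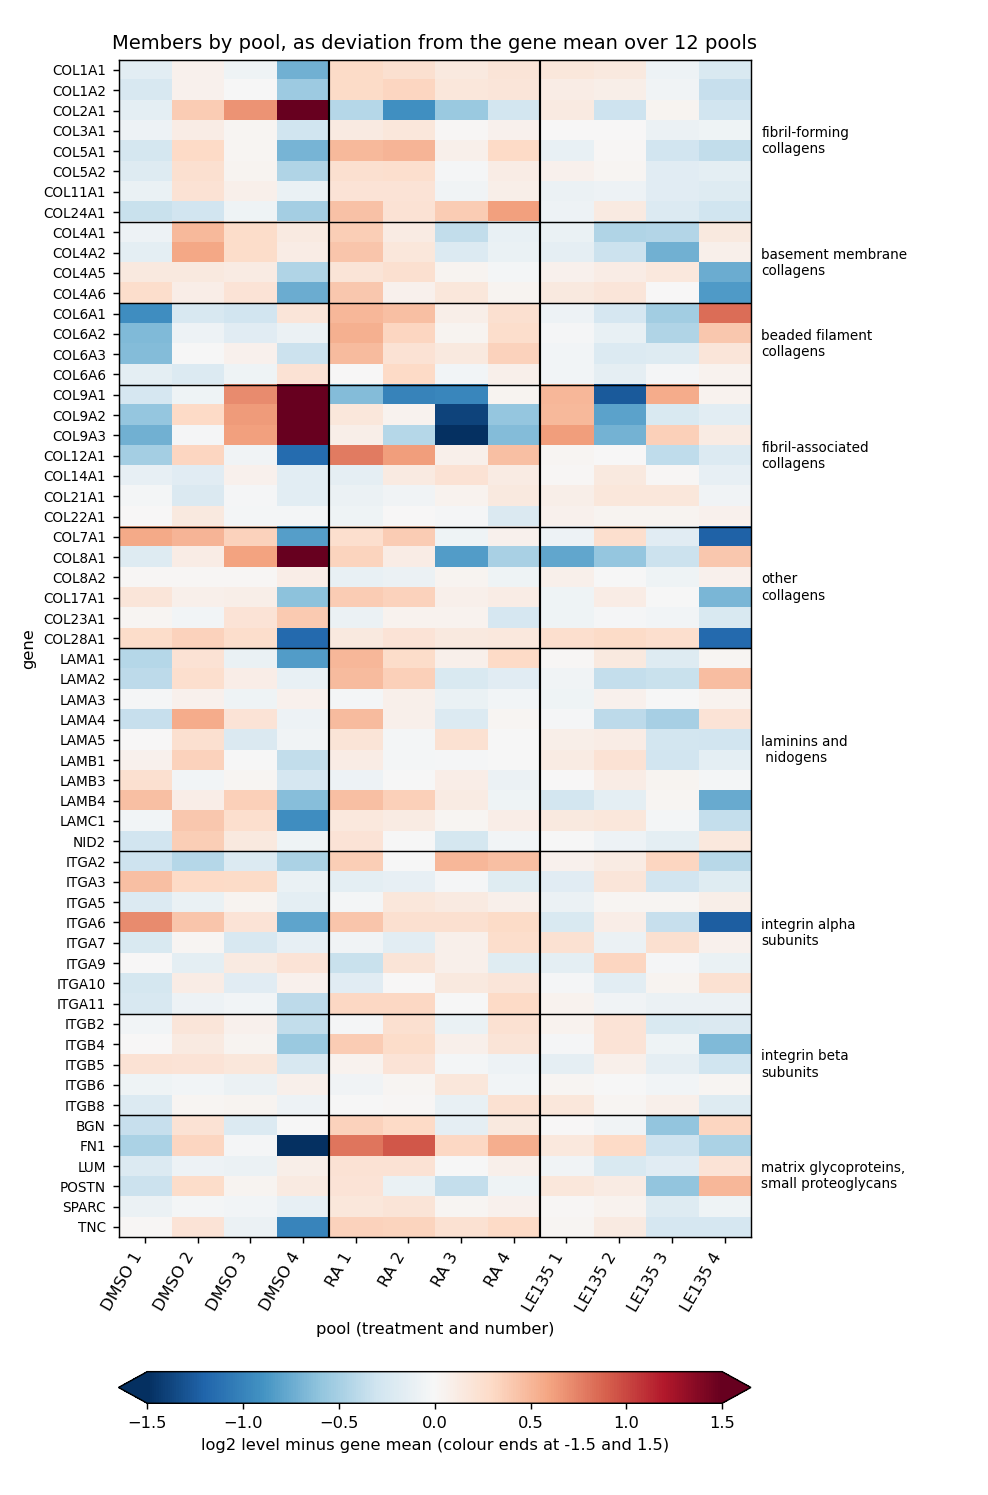
Log2 level of each of the 58 members in each of the 12 pools, minus the gene's mean over the pools, by role; red is above and blue below the gene mean, and colours end at -1.5 and 1.5. The RA columns are mostly pale red, DMSO 4 holds the darkest cells in both directions, and LE135 4 has dark blue cells at COL7A1, COL28A1 and ITGA6.

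Among the fibril-forming collagens, which build the fibrils of skin, cartilage and bone, COL24A1 was the member called. Its log2 levels were 5.53, 5.57, 5.80 and 5.35 in the DMSO pools, 6.31, 6.09, 6.24 and 6.49 in the RA pools and 5.78, 5.996, 5.66 and 5.56 in the LE135 pools. Every RA pool lay above every other pool, and LE135 overlapped with DMSO. RA exceeded DMSO by 0.72 (SE 0.12, 1.64-fold, adjusted p = 0.0107, higher in 4 of 4 pools). LE135 exceeded DMSO by 0.19 (SE 0.12, adjusted p = 0.579), and RA exceeded LE135 by 0.53 (SE 0.12, adjusted p = 0.210). With any 1 of the 12 pools left out the RA call held, at adjusted p from 0.00940 to 0.0401. The F test (adjusted p = 0.0197) lost it without RA 1 (0.0686), RA 3 (0.0515) or RA 4 (0.0629).

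COL2A1, the main fibril collagen of cartilage, had the opposite pattern. The DMSO pools stood at 10.05, 10.58, 10.88 and 11.89, the RA pools at 9.78, 9.28, 9.64 and 9.93 and the LE135 pools at 10.34, 9.88, 10.24 and 9.91. All DMSO pools were above all RA pools, with DMSO 4 the highest of all 12. The RA minus DMSO difference was -1.19 (SE 0.31, adjusted p = 0.0773), and the LE135 minus DMSO difference -0.75 (adjusted p = 0.315). Without DMSO 4 and LE135 4 the RA difference was smaller, -0.84, and passed (adjusted p = 0.0376), and without DMSO 1 it was -1.46 (adjusted p = 0.0291). The LE135 difference was -0.35 without DMSO 4 and LE135 4. A dimmer probe set of COL2A1 differed by -0.15 under RA.

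The chains of collagen I, the bulk fibril protein of connective tissue, were higher under RA without passing. COL1A1 stood at 14.02, 14.24, 14.11 and 13.45 in DMSO, 14.46, 14.42, 14.32 and 14.36 in RA and 14.35, 14.33, 14.10 and 13.95 in LE135. The RA pools were close together above all DMSO pools, of which DMSO 4 was lowest. The difference was 0.44 (SE 0.15, adjusted p = 0.181), and without DMSO 4 and LE135 4 it was 0.27 (adjusted p = 0.0678). For the partner chain COL1A2 it was 0.42 (SE 0.14, adjusted p = 0.149). The other probe set of COL1A1, with a mean level of 13.59, differed by 0.69 (SE 0.13) and did pass, for RA (adjusted p = 0.0176) and in the F test (0.0367).

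COL3A1, which forms fibrils with collagen I, differed by 0.16 under RA (interval -0.02 to 0.34) and by 0.03 under LE135. The RA difference was 0.08 over the other 10 pools. A lower probe set of COL3A1, with a mean level of 9.81, differed by 0.81 under RA with no overlap (adjusted p = 0.0751) and by 0.49 under LE135 (adjusted p = 0.340). COL5A1, a chain of the collagen that starts collagen I fibrils, stood at 11.71 ± 0.43 (SD, n = 4 pools, as throughout) in DMSO, 12.21 ± 0.20 in RA and 11.68 ± 0.18 in LE135. It was higher in RA than in LE135 by 0.53 with no overlap between pools (adjusted p = 0.503). Its lower probe set had the opposite sign against DMSO, -0.56 against 0.50, and over the other 10 pools the higher one differed by 0.32. COL5A2 and COL11A1 differed from DMSO under RA by 0.24 and 0.09, and COL5A2 by 0.12 over the other 10 pools. A lower probe set of COL11A1, with a mean level of 8.09, differed by 0.49 under RA with no overlap (adjusted p = 0.102). Under LE135 it differed by 0.28, against -0.15 for the higher one. By count, 7 of the 8 fibril-forming collagens were above DMSO under RA, 1 of them called, and 5 under LE135, none called. These counts were 7 and 3 over the other 10 pools.

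**Figure D2:**
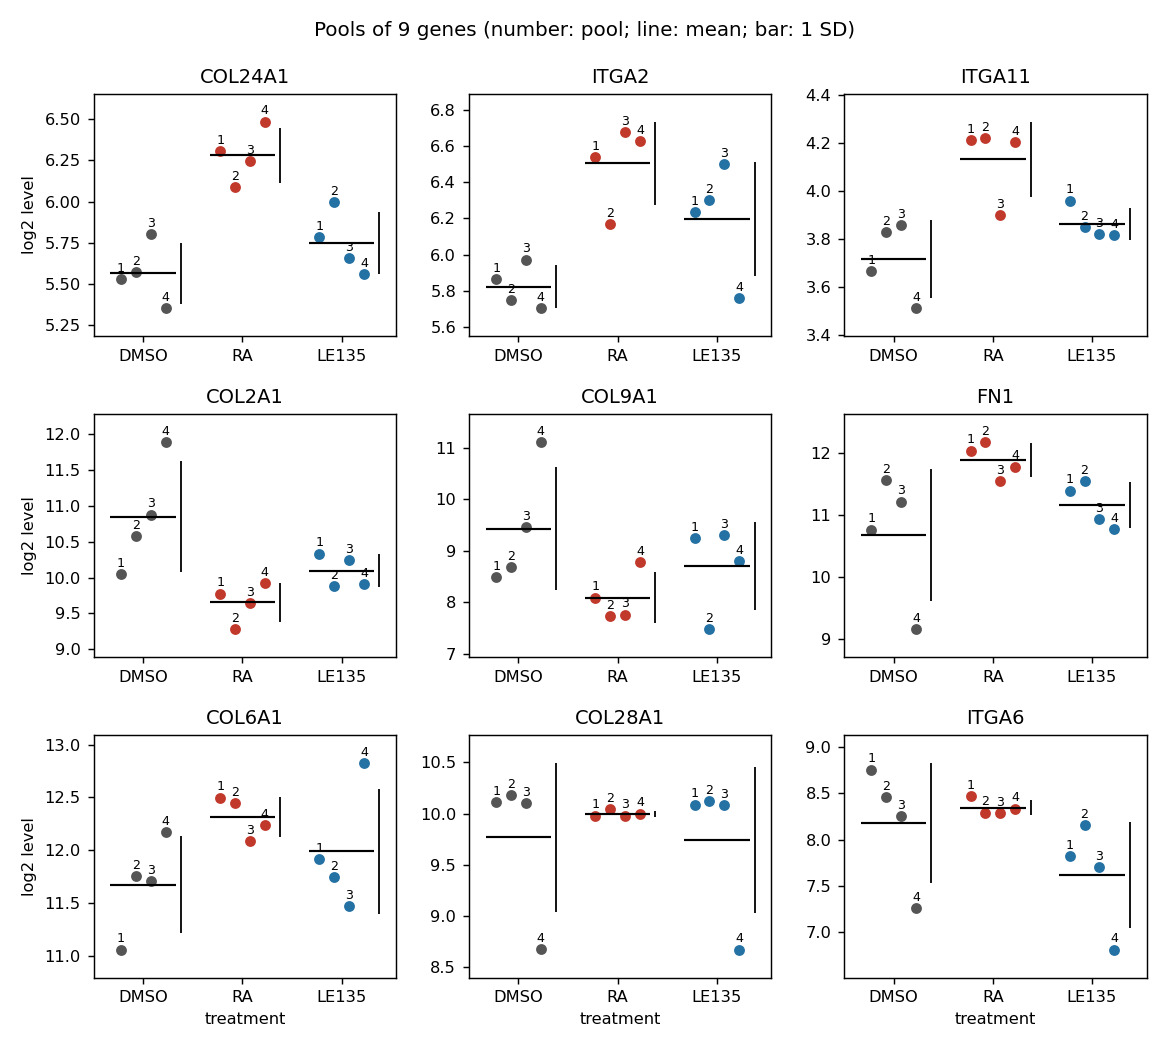
Log2 level in each pool (numbered points) for 9 members, with the group mean as a line and 1 SD on either side as a bar. RA pools of COL24A1, ITGA2 and ITGA11 lie above all DMSO pools, those of COL2A1 lie below them, and pool 4 of DMSO lies far from the rest for COL9A1, FN1, COL28A1 and ITGA6.

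Collagen VI forms beaded filaments around cells, and its chains COL6A1, COL6A2 and COL6A3 stood higher under RA by 0.64, 0.53 and 0.53 without passing. COL6A1 levels were 11.06, 11.75, 11.71 and 12.17 in DMSO, 12.50, 12.45, 12.09 and 12.24 in RA and 11.92, 11.75, 11.47 and 12.83 in LE135. DMSO 4 lay above RA 3, and LE135 4 was the highest of the 12, so the groups overlapped. Adjusted p was 0.317, and without DMSO 4 and LE135 4 the difference was 0.81 and passed (adjusted p = 0.0255). A lower probe set of COL6A1, with a mean level of 7.17, differed by 0.56 under RA and 0.57 under LE135 without passing. COL6A3 came closest in the full fit (SE 0.15, adjusted p = 0.106). All 4 chains, with the dim COL6A6 at 0.13 (0.22 over the other 10 pools), were above DMSO under RA and under LE135, and none passed in either.

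The fibril-associated collagens sit on the surface of fibrils. Collagen IX, of the chains COL9A1, COL9A2 and COL9A3, decorates the collagen II fibrils of cartilage. COL9A1 levels were 8.49, 8.68, 9.46 and 11.10 in DMSO, 8.09, 7.74, 7.76 and 8.78 in RA and 9.24, 7.48, 9.30 and 8.79 in LE135. DMSO 4 stood far above the other DMSO pools, and LE135 2 was the lowest of the 12. RA minus DMSO was -1.34 for COL9A1, -1.05 for COL9A2 and -1.22 for COL9A3, with SE from 0.52 to 0.59 and adjusted p from 0.285 to 0.386. LE135 minus DMSO was -0.73, -0.79 and -0.46, none passing. The interval of COL9A1 under RA was -2.57 to -0.10. Without DMSO 4 and LE135 4 the RA differences were -0.78, -0.55 and -0.62 (adjusted p = 0.335, 0.494 and 0.462), and the LE135 differences -0.20, -0.30 and 0.14, so that of COL9A3 turned its sign.

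Of 7 cartilage markers listed, 5 were measured and 3 of those were dim. ACAN, the large proteoglycan of cartilage, rose by 2.66 under RA (SE 0.27, adjusted p = 0.000799) and by 2.61 under LE135 (adjusted p = 0.000776), while SOX9, the cartilage transcription factor, did not pass in either. The list's median deviation per pool ran from -0.22 to 0.10 in DMSO, -0.06 to 0.05 in RA and -0.05 to 0.15 in LE135. This median hides larger moves of single genes. From the mean of the other DMSO pools, DMSO 4 differed by 1.56 for SOX9 and -1.25 for ACAN. For the dim HAPLN1, MATN1 and MATN3 it differed by 0.94, 0.09 and 0.10. LE135 4 differed from the rest of its group by 1.13 for SOX9, 0.58 for ACAN and -0.28, -0.10 and 0.06 for the dim genes in turn. The part of cartilage content in the collagen II and IX levels was not tested.

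COL12A1, a collagen of tendon, dermis and other dense connective tissue, stood at 10.05, 10.88, 10.51 and 9.41 in DMSO, 11.34, 11.19, 10.63 and 11.02 in RA and 10.59, 10.57, 10.18 and 10.36 in LE135. RA pools were above all LE135 pools and above the DMSO pools other than DMSO 2, which lay among them. The RA minus DMSO difference was 0.83 (SE 0.27, 1.78-fold, adjusted p = 0.151), and its 5 probe sets all had that sign, from 0.12 to 1.04. COL21A1, dim throughout, differed by 0.12 and 0.20 under RA and LE135. Of the 7 fibril-associated members 3 were above DMSO under RA and 4 under LE135.

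Of the 9 roles, the basement membrane collagens had the lowest median under LE135 relative to DMSO, -0.26 over 4 genes, none of which passed. COL4A1 and COL4A2 make up the general collagen IV network. COL4A1 stood at 9.10, 9.67, 9.46 and 9.31 in DMSO, 9.55, 9.31, 8.82 and 9.07 in RA and 9.08, 8.73, 8.74 and 9.33 in LE135. The groups overlapped, since LE135 4 lay with the DMSO pools. LE135 minus DMSO was -0.42 (SE 0.18, adjusted p = 0.356) for COL4A1 and -0.48 (SE 0.20, adjusted p = 0.306) for COL4A2. RA minus DMSO was -0.20 and -0.14. COL4A5 and COL4A6, chains of the network found under epithelia among others, differed by -0.10 and -0.08 under LE135.

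Other collagens include the anchoring fibril collagen COL7A1 and the hemidesmosome collagen COL17A1, which fasten the epidermis to the tissue below. COL17A1 stood at 12.72 ± 0.37 in DMSO, 13.02 ± 0.16 in RA and 12.63 ± 0.36 in LE135, with an RA minus LE135 difference of 0.39 (adjusted p = 0.721) that was 0.22 over the other 10 pools. COL7A1 stood at 10.63 ± 0.66, 10.64 ± 0.20 and 10.18 ± 0.63, and RA minus DMSO was 0.01 over all pools and -0.32 over the other 10. COL8A1, a short-chain collagen, was lower than DMSO by its mean under both drugs (-0.76 and -0.86, adjusted p = 0.419 and 0.390), and by -0.39 and -0.73 without DMSO 4 and LE135 4. Its DMSO pools ran from 5.17 to 7.01, the highest being DMSO 4. The dim COL23A1, a transmembrane collagen, differed by -0.20 and -0.23, and by -0.12 and -0.10 over the other 10 pools. In this group 3 of 6 members were above DMSO under RA and 0 of 6 under LE135, none past the threshold. COL17A1 alone (1 of 6) was above DMSO under RA over the other 10 pools.

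No laminin or nidogen passed in any comparison, and their median was 0.06 for RA and -0.03 for LE135 over 10 genes, of which 7 were above DMSO under RA. The medians without DMSO 4 and LE135 4 were -0.06 and -0.11, with 3 of 10 above DMSO under RA, so the sign of the RA median rested on these pools. LAMA1, the alpha chain of the laminin of early embryos, differed most under RA: it stood at 8.38, 9.02, 8.69 and 7.96 in DMSO, 9.29, 9.07, 8.88 and 9.09 in RA and 8.81, 8.94, 8.60 and 8.83 in LE135. RA pools overlapped with DMSO only through DMSO 2. The difference was 0.57 (SE 0.19, adjusted p = 0.156), and of all the alternatives run it passed in the fit without DMSO 2 alone (0.74, adjusted p = 0.0437). A lower probe set of LAMA1, with a mean level of 5.59, differed by 0.46 under RA with no overlap (adjusted p = 0.219). Under LE135 that probe set differed by 0.51 (adjusted p = 0.189). LAMC1, the gamma chain shared by most laminins, differed by 0.18 (interval -0.34 to 0.70) under RA and 0.06 (-0.46 to 0.59) under LE135. DMSO 4 was -1.13 from the other DMSO pools for LAMC1, and over the other 10 pools both differences turned, to -0.10 and -0.11.

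LAMB1, a common beta chain, differed by 0.01 under RA (interval -0.31 to 0.32) and by -0.12 over the other 10 pools. One of its lower probe sets, with a mean level of 6.86, rose by 0.59 under RA (adjusted p = 0.0367). Under LE135 it differed by 0.41 (adjusted p = 0.160). Another, with a mean level of 8.06, differed by 0.27 under RA and 0.31 under LE135 without passing. The lowest, with a mean level of 4.03, differed by 0.0006 and 0.09, so the probe sets of this gene disagree. LAMB4, another beta chain, was lower in LE135 than in RA by its mean (RA minus LE135 0.51, adjusted p = 0.665). NID2, which links laminin to collagen IV, differed by -0.06 (-0.37 to 0.24) under RA and -0.05 (-0.36 to 0.25) under LE135, which was -0.15 over the other 10 pools. The dim LAMA5, a chain of mature epithelial basement membranes, differed by 0.10 and -0.08. LAMA2, LAMA4, LAMB3 and the dim LAMA3 lay between -0.04 and 0.15 under RA and between -0.26 and 0.04 under LE135. Over the other 10 pools they lay between -0.09 and 0.12 under RA and between -0.44 and 0.01 under LE135.

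Among integrin alpha subunits, ITGA2, which with beta 1 forms a collagen receptor, had levels of 5.86, 5.75, 5.97 and 5.70 in DMSO, 6.54, 6.17, 6.68 and 6.63 in RA and 6.23, 6.30, 6.50 and 5.76 in LE135. All RA pools were above all DMSO pools, and the LE135 pools spread from the DMSO range into the RA range. RA exceeded DMSO by 0.68 (SE 0.15, 1.60-fold, adjusted p = 0.0429, 4 of 4 pools), and LE135 exceeded DMSO by 0.38 (SE 0.15, adjusted p = 0.309). The RA call was lost in 9 of the 12 fits that left out 1 pool, with adjusted p up to 0.121 without RA 1, and held without RA 2, LE135 3 or LE135 4.

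ITGA11, a receptor subunit for fibrillar collagen on fibroblasts, was dim. It stood at 3.67, 3.83, 3.86 and 3.51 in DMSO, 4.21, 4.22, 3.90 and 4.20 in RA and 3.96, 3.85, 3.82 and 3.82 in LE135. RA pools were above all DMSO pools, by a narrow margin for RA 3. The difference was 0.42 (SE 0.09, 1.34-fold, adjusted p = 0.0436), below the 1.5-fold limit of the design text, and was lost in 10 of the 12 fits that left out 1 pool (adjusted p up to 0.133, without RA 1); it held without RA 3 or LE135 4. Without detection calls it was not settled whether a level under 5 lies above background.

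ITGA3, a laminin receptor subunit of epithelia, stood at 6.13, 5.98, 5.97 and 5.58 in DMSO, 5.53, 5.56, 5.67 and 5.50 in RA and 5.52, 5.87, 5.39 and 5.50 in LE135. DMSO 4 lay among the drug pools, and the other DMSO pools lay above all of them. RA minus DMSO was -0.35 (adjusted p = 0.196) and LE135 minus DMSO -0.35 (adjusted p = 0.222). Without DMSO 4 both passed, at -0.46 (adjusted p = 0.0436) and -0.46 (0.0385). Without DMSO 4 and LE135 4 the RA difference of -0.46 passed (adjusted p = 0.0276), and the LE135 difference of -0.44 did not (0.0546). A lower probe set of ITGA3, with a mean level of 3.80, differed by -0.001 under RA and 0.13 under LE135.

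ITGA6, the laminin receptor subunit of hemidesmosomes, stood at 8.76, 8.46, 8.25 and 7.27 in DMSO, 8.47, 8.29, 8.29 and 8.34 in RA and 7.82, 8.15, 7.70 and 6.81 in LE135. The RA pools were close together above all LE135 pools, and pool 4 was the lowest of both other groups. RA minus LE135 was 0.72 (SE 0.32, 1.65-fold, adjusted p = 0.637), and LE135 minus DMSO -0.56 (adjusted p = 0.502). Without DMSO 4 and LE135 4 the RA minus LE135 difference was 0.45, and the LE135 minus DMSO difference was -0.60 and passed (adjusted p = 0.0405).

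ITGA5, the dim subunit of the fibronectin receptor, differed by 0.19 under RA (interval 0.03 to 0.35) and 0.11 under LE135 (0.07 over the other 10 pools). The remaining alpha subunits, ITGA7, ITGA10 and the dim ITGA9, lay between -0.11 and 0.17 under RA and between -0.03 and 0.25 under LE135. Over the other 10 pools they lay between -0.06 and 0.18 under RA and between 0.06 and 0.27 under LE135. None of the 5 beta subunits passed. ITGB4, the hemidesmosome partner of ITGA6, differed by 0.32 under RA (SE 0.19, adjusted p = 0.477) and -0.05 under LE135. DMSO 4 was -0.62 from the other DMSO pools for ITGB4, and over the other 10 pools the RA difference was 0.17. A lower probe set of ITGB4, with a mean level of 5.13, differed by -0.03 under RA and -0.13 under LE135. ITGB5, a vitronectin receptor subunit, differed by -0.06 and -0.21 (-0.17 and -0.26 over the other 10 pools). The dim leukocyte subunit ITGB2 differed by 0.13 and -0.00, ITGB6 by 0.05 and 0.03, and ITGB8 by 0.09 and 0.07. Over the other 10 pools ITGB2 differed by 0.02 under RA and ITGB8 by 0.14 under LE135.

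Of the 6 matrix glycoproteins and small proteoglycans none passed. FN1, the fibronectin gene, had levels of 10.76, 11.56, 11.21 and 9.16 in DMSO, 12.04, 12.17, 11.54 and 11.78 in RA and 11.39, 11.54, 10.93 and 10.76 in LE135. DMSO 4 stood well below every other pool, DMSO 2 lay among the RA pools, and the lowest RA pool, RA 3, just cleared the highest LE135 pool, LE135 2. RA minus DMSO was 1.21 (SE 0.42, 2.31-fold, adjusted p = 0.187), and LE135 minus DMSO 0.48 (adjusted p = 0.713). Without DMSO 4 and LE135 4 the RA difference was 0.70 (adjusted p = 0.0800), less than the full value by more than 1.5 times, and the LE135 difference was 0.11. In a lower probe set of FN1, with a mean level of 6.28, all RA pools lay above all DMSO and all LE135 pools. There RA minus DMSO was 1.07 (adjusted p = 0.107) and LE135 minus DMSO 0.23 (adjusted p = 0.838).

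TNC, tenascin-C, stood at 13.56, 13.74, 13.45 and 12.55 in DMSO, 13.88, 13.87, 13.77 and 13.84 in RA and 13.57, 13.67, 13.28 and 13.29 in LE135. The RA pools were above all others, and DMSO 4 was the lowest. RA minus DMSO was 0.52 (adjusted p = 0.265), and 0.26 (adjusted p = 0.140) without DMSO 4 and LE135 4. SPARC, a collagen-binding protein made with collagen, stood at 13.34 ± 0.04 in DMSO and 13.53 ± 0.08 in RA with no overlap (0.19, adjusted p = 0.195). The small proteoglycans that bind collagen fibrils, LUM and BGN, differed by 0.19 and 0.25 under RA and by 0.01 and 0.01 under LE135. POSTN, periostin, differed by -0.12 (interval -0.58 to 0.35) and 0.02 (-0.45 to 0.48). Over the other 10 pools BGN and POSTN differed by -0.10 and -0.10 under LE135.

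**Figure D3:**
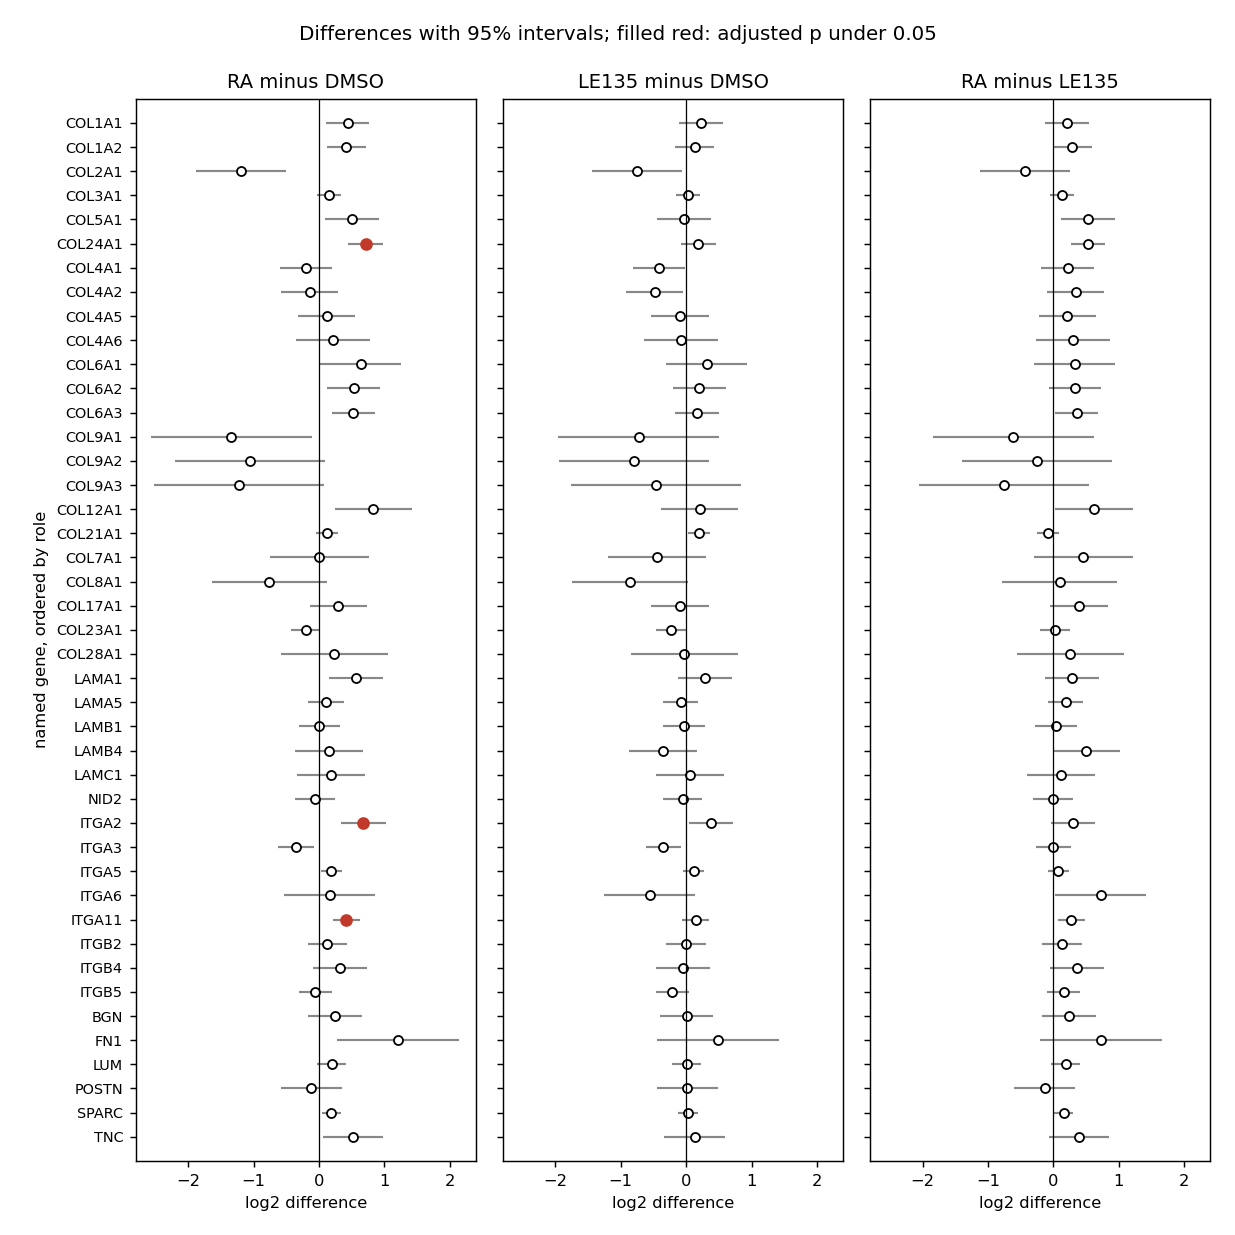
Log2 differences of the 43 named members with 95% intervals of the limma fit, for RA minus DMSO, LE135 minus DMSO and RA minus LE135; filled red points have adjusted p under 0.05. The filled points are COL24A1, ITGA2 and ITGA11 under RA, and the widest intervals belong to COL9A1, COL9A2 and COL9A3.

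Pools of the same treatment varied more for these genes than for the array as a whole. The median SD within groups was 0.23 for the members and 0.15 for all probe sets, and 8 members (13.8%) exceeded 0.5, against 4.05% of all probe sets. They were COL9A3 (0.94), COL9A1 (0.89), COL9A2 (0.83), FN1 (0.67), COL8A1 (0.63), COL28A1 (0.59), COL7A1 (0.54) and ITGA6 (0.50).

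DMSO 4 lay over 1 log2 unit from the mean of the other DMSO pools for 12 members (20.7%, against 6.31% of all probe sets), 7 lower and 5 higher. The 5 higher were the cartilage collagens COL2A1 (1.39), COL9A1 (2.23), COL9A2 (1.99) and COL9A3 (2.42), with COL8A1 (1.47). The largest shortfalls were those of FN1 (-2.02), COL28A1 (-1.46), COL7A1 (-1.30) and ITGA6 (-1.22). LE135 4 lay over 1 unit away for 4 members (6.90%, against 3.16%).

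Both DMSO 4 and LE135 4 were below the rest of their groups, by more than 0.5, in 9 members: COL4A5, COL4A6, COL7A1, COL17A1, COL28A1, LAMB4, ITGA6, ITGB4 and FN1. Both were above the rest by more than 0.5 in 2 members, COL6A1 and COL8A1. The share of all probe sets that moved jointly in this way was not counted, so the counts are not read as particular to the members. The products of COL7A1, COL17A1, ITGA6 and ITGB4 sit in the anchoring structures under the epidermis. COL28A1, a collagen of the von Willebrand domain type, stood at 10.11, 10.18, 10.10 and 8.67 in DMSO, 9.98, 10.04, 9.98 and 9.999 in RA and 10.09, 10.12, 10.08 and 8.67 in LE135. The other 10 pools ran from 9.98 to 10.18, and DMSO 4 and LE135 4 were both at 8.67. The cartilage collagens did not move with these genes in LE135 4, where COL2A1 was -0.24 and COL9A1, COL9A2 and COL9A3 were 0.12, 0.03 and 0.04 from the rest.

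Of the epidermal markers, the median deviation was 0.09 in DMSO 4, the lowest of the DMSO pools, and -0.36 in LE135 4, the lowest of all 12. It ran from 0.09 to 0.28 in DMSO, -0.04 to 0.03 in RA and -0.36 to -0.00499 in LE135. TP63, the transcription factor of basal epidermis, fell under LE135 (-0.81, adjusted p = 0.0212), and so did JUP, plakoglobin (-0.35, adjusted p = 0.0364). The epidermal median hides moves of single genes in both directions. From the mean of the other DMSO pools, DMSO 4 differed by 0.49 for TP63, 0.26 for KRT18 and 0.02 for KRT8. For JUP, EPCAM, CDH1 and DSP it differed by -0.07, -0.12, -0.40 and -0.42. LE135 4 differed from the rest of its group by 0.47 for KRT18. For the other epidermal markers it differed by -0.14 (EPCAM) to -0.73 (DSP). Muscle markers, 6 of 11 measured, had their lowest median in DMSO 4, -2.63, and their highest in RA 2, 1.70. Of them DES, desmin, was called higher under RA, by 0.92 with no overlap with DMSO (adjusted p = 0.0353), and the other 5 had adjusted p from 0.761 to 0.865. The part of tissue makeup in the values of these pools was not tested.

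**Figure D4:**
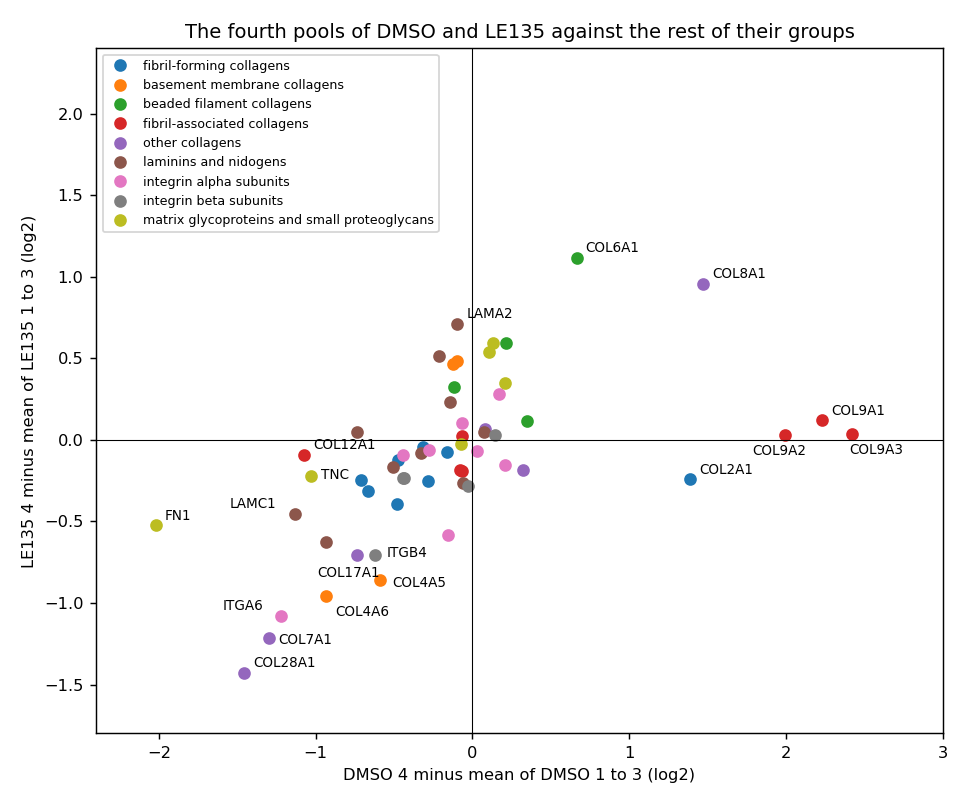
For each of the 58 members, the level in DMSO 4 minus the mean of DMSO 1 to 3 (x axis) against the level in LE135 4 minus the mean of LE135 1 to 3 (y axis), log2, coloured by role. Points at lower left, such as COL28A1 and COL7A1, are low in both pools, and COL2A1, COL9A1, COL9A2 and COL9A3 are high in DMSO 4 alone.

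Without DMSO 4 and LE135 4 more of the whole array passed, and more of the members with it. Under RA 6 members then passed, 10.3%, against 7.64% of all probe sets: COL24A1 (0.65), COL6A1, ITGA2 (0.64) and ITGA11 (0.35) were higher and COL2A1 and ITGA3 lower. Under LE135 ITGA6 alone passed, 1.72%, against 5.13%, and between RA and LE135 none did, against 0.215%.

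RA 3 was the lowest RA pool for 36 of 58 members (62.1%, against 23.8% of all probe sets), and RA 1 was the highest for 25 (43.1%, against 24%). In DMSO, pool 4 was lowest for 27 members (46.6%, against 34.8%), pool 1 was lowest for 21 (36.2%, against 22.4%), and pool 2 was highest for 29 (50%, against 21.2%). The median deviation of all members was 0.20 and 0.18 in RA 1 and RA 2, 0.04 in RA 3 and 0.08 in RA 4. The connective tissue markers followed the same order at the top, at 0.31 in RA 1 and 0.28 in RA 2, and were at -0.16 in RA 3 and 0.04 in RA 4. In DMSO they ran from -0.34 in DMSO 1 to -0.03 in DMSO 3, and in LE135 from -0.07 to 0.11. Of these 5 genes 1 was dim (THY1) and 1 passed, DCN, a small proteoglycan that binds collagen fibrils, higher under RA by 0.32 (adjusted p = 0.0457). The part of connective tissue content in the RA differences was not tested.

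**Figure D5:**
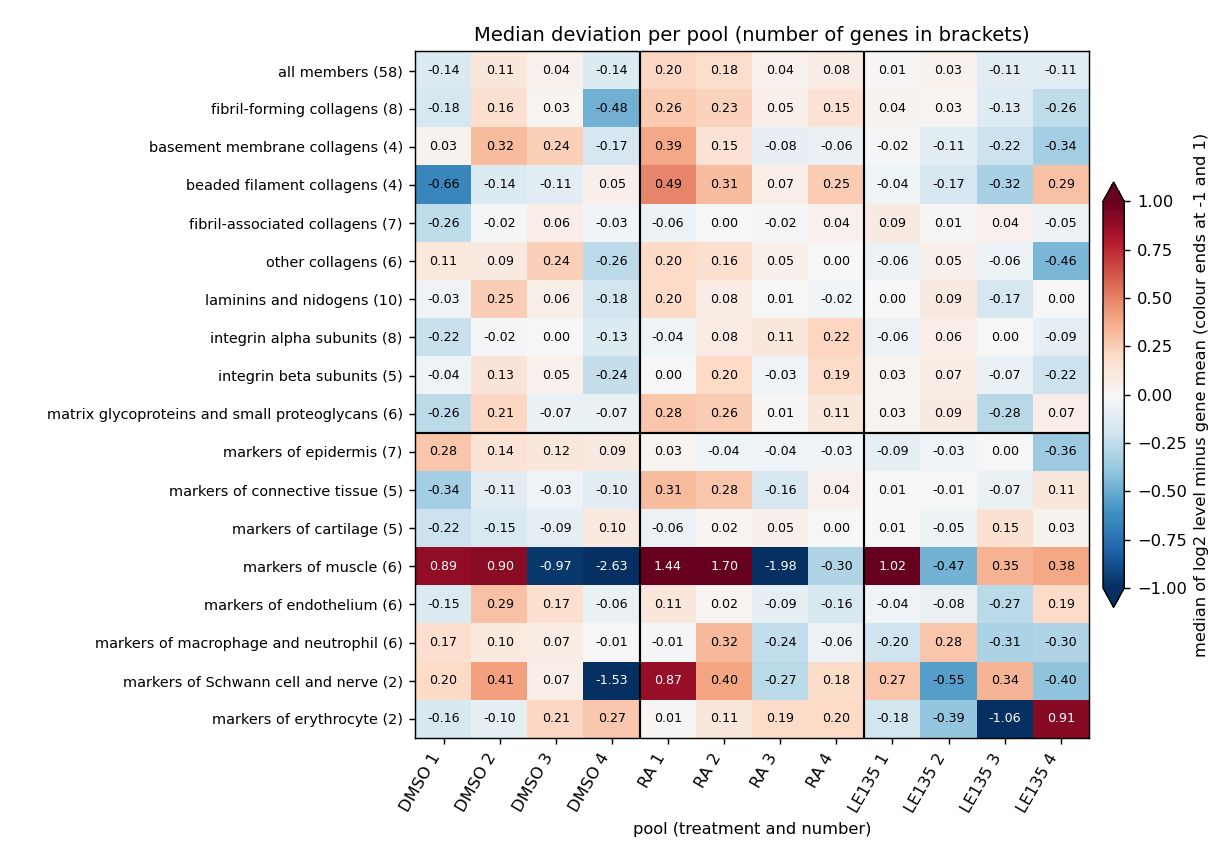
Median over the genes of each group of the log2 level minus the gene's mean over 12 pools, for the members, their 9 roles and 8 lists of tissue markers. All members are highest in RA 1 and RA 2 (0.20 and 0.18), connective tissue markers likewise (0.31 and 0.28), and muscle markers vary most, from -2.63 to 1.70.

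Genes that make, process and read this matrix were taken from 5 lists. Of the enzymes and carriers of collagen modification and secretion, 14 of 27 were measured, 1 rose under RA (7.14%, against 2.64% of all probe sets called in either direction) and none passed under LE135 (against 2.09%). It was P4HA1, the catalytic subunit of the prolyl hydroxylase that lets the triple helix form, with 11.61, 11.77, 11.59 and 11.55 in DMSO, 12.20, 12.12, 11.99 and 12.07 in RA and 11.97, 12.02, 11.67 and 11.92 in LE135. All RA pools were above all DMSO pools, and RA exceeded DMSO by 0.47 (SE 0.09, adjusted p = 0.0163). MIA3, which helps load procollagen for export, was next at 0.50 (adjusted p = 0.0534). The median over the list was 0.20 for RA and 0.06 for LE135.

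Of the genes for collagen processing and crosslinking, 12 of 15 were measured and 1 rose under RA (8.33%, against 2.64%): BMP1, the protease that trims procollagen, by 0.49 (SE 0.11, adjusted p = 0.0462). Under LE135 BMP1 differed by 0.41 (adjusted p = 0.0963), with no overlap with DMSO. TGM2, a crosslinking transglutaminase, differed by 0.37 and 0.31 and did not pass. The 17 measured of 21 other basement membrane genes had no call in either comparison and a median of 0.00 under RA. Those of smallest p were TINAGL1, a tubulointerstitial nephritis antigen-like matrix protein (-0.51, adjusted p = 0.0879), and the dim hemicentin HMCN1 (0.20, adjusted p = 0.153).

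Of the genes of integrin adhesion and signalling, 24 of 33 were measured, none passed under RA and 1 fell under LE135 (4.17%, against 2.09%). It was FLNA, filamin A, which links integrins to actin, at 11.81, 11.99, 11.66 and 11.49 in DMSO, 11.71, 11.73, 11.34 and 11.29 in RA and 11.09, 11.11, 11.28 and 11.07 in LE135. All LE135 pools were below all DMSO pools (difference -0.60, SE 0.13, adjusted p = 0.0359). PTK2, focal adhesion kinase, was closest to the threshold under RA (0.21, adjusted p = 0.0522), with RA pools between 8.87 and 8.90 above all others.

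Other ligands and receptors of collagens and integrins gave 4 calls under RA among 22 measured of 27 (18.2%, against 2.64% of all probe sets), and none under LE135 (against 2.09%). Higher were THBS3, a thrombospondin (0.49, adjusted p = 0.0474), KERA, keratocan (0.52, adjusted p = 0.0460), and DCN. Lower was TNN, tenascin-N, with 4.57, 5.51, 5.45 and 5.62 in DMSO, 4.26, 4.20, 4.57 and 4.50 in RA and 5.26, 5.02, 5.19 and 4.84 in LE135 (-0.90, adjusted p = 0.0419). The lowest DMSO pool of TNN, DMSO 1, and the highest RA pool, RA 3, all but met. The median over the list was 0.22 under RA, against -0.01 over all probe sets, and 0.07 under LE135.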

How the data were processed

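RNA of 12 pools of forelimb blastemas, 4 each for DMSO, RA and LE135, was measured on Affymetrix 3' IVT arrays, per the labels' protocols. The authors deposited log2 expression values made with RMA, a method that corrects background, quantile-normalizes the arrays and summarizes probes, per the submitters' processing notes; the version is not given in the sources used here. RMA gives no detection calls, and quantile normalization removes any shift common to most probe sets. All 20080 probe sets were read, 45 controls were left out and 20035 were tested. The platform annotation gave 10951 probe sets 1 symbol, 9084 none and none several. All 58 members matched the species' RefSeq table by symbol. Of the 19 members with several probe sets, the probe sets differed in sign for 4 in RA minus DMSO, 7 in LE135 minus DMSO and 6 in RA minus LE135. Sequences, coordinates, NID1, ITGB1 and ITGAV are not analysed here.

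A mean per treatment was fitted to all 12 arrays in limma 3.58.1 (R 4.3.3), with 9 residual degrees of freedom, followed by eBayes, a moderated F test and 3 contrasts, adjusted by Benjamini-Hochberg over all 20035 probe sets at 0.05, as in the design text, which names an ANOVA. Adjusted p, SE and intervals (95%) are from this fit. It was tested on simulated data in which pools were independent and of equal spread. Those data held no pools that stand apart as DMSO 4 and LE135 4 do, so that case was not tested. Pools are separate animals, and their number limits the precision. The members, roles, marker and pathway lists were chosen with earlier results of these data known. Named in the text are members past the threshold, per role the 3 of smallest F p and the 2 of highest level, the 6 of largest SD within groups and a fixed list; other members are given for completeness. Of the pathway lists, members past the threshold and the 2 of smallest F p are named. Alternatives were a replicate block, a trended robust prior, the compared samples alone, plain ANOVA, array weights, a filter on dim probe sets, arrays centred on their medians, the mean of a gene's probe sets, and omission of each pool or of DMSO 4 and LE135 4. Between DMSO and LE135 all 4 same-number pairs of pools deviated together (correlations 0.13 to 0.61). Pools of unlike number did so too: DMSO 2 correlated at 0.39 with LE135 1 and at 0.13 with LE135 2. DMSO 1 correlated at 0.37 with LE135 3 and at 0.24 with LE135 1. Every pair of DMSO 1 to 3 with LE135 1 to 3 correlated above 0 (0.12 to 0.39). DMSO 4 with LE135 1 to 3, and LE135 4 with DMSO 1 to 3, correlated below 0 (-0.50 to -0.29). Deviations from a group's mean sum to 0 within the group, so the 4 same-number pairs are not independent of each other. The labels give no link by number, so these correlations cannot settle whether the numbers pair the pools, and no comparison was paired in the fit reported.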

Additional observations from a re-analysis of the deposited data

Results flagged for a closer look

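Among 129 groups of 4 pools of the 43 named members, 12 held a pool whose gap to its nearest neighbour filled more of the group's range than Dixon's 95% critical value for 4 values allows. Chance flags about 1 group in 20 of genes not chosen for their spread, but 6 of the named members were chosen for a large SD within groups. By the same rule 14 of 174 groups of all 58 members (8.05%) and 7.74% of the groups of all probe sets held such a pool. DMSO 4 was the lone low pool in 6 of the 12 and LE135 4 in 3. Over all probe sets, DMSO 4 was the lone low pool in 741 and LE135 4 in 547 of 4652 such groups. In DMSO 4, COL4A5 was at 9.93 against 10.51 to 10.53 in the other DMSO pools, and COL4A6, the neighbouring chain, at 7.62 against 8.47 to 8.62. COL7A1, of anchoring fibrils, was at 9.66 against 10.83 to 11.05, and COL17A1, of hemidesmosomes, at 12.17 against 12.86 to 12.98. COL28A1 was at 8.67 against 10.10 to 10.18, and ITGB5 at 9.17 against 9.58 to 9.62. In LE135 4, COL4A5 was at 9.64 against 10.44 to 10.55, COL4A6 at 7.52 against 8.37 to 8.55, and COL28A1 at 8.67 against 10.08 to 10.12. The remaining 3 were single pools of other groups. COL6A2 was at 11.82 in DMSO 1 against 12.32 to 12.41, and ITGA11 at 3.90 in RA 3 against 4.20 to 4.22. LAMB1 was at 12.03 in RA 1, above 11.88 to 11.90.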

How the results depend on the processing

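Counts of members past the threshold moved with the fit. The F test called 1 member in the fit reported, 0 with a replicate block, 0 with plain ANOVA, 5 with array weights and 4 without DMSO 4 and LE135 4. The RA minus DMSO contrast called 3, 1 with plain ANOVA, 1 with arrays centred on their medians, 7 with array weights and 6 without DMSO 4 and LE135 4. LE135 minus DMSO called 0, 1 with array weights (ITGA3) and 1 without DMSO 4 and LE135 4 (ITGA6). RA minus LE135 called 0, and 1 with array weights (COL24A1). With 1 pool left out, the counts ran from 0 to 2 for the F test, 1 to 3 for RA minus DMSO, 0 to 1 for LE135 minus DMSO and 0 to 0 for RA minus LE135, and the median differences from 0.08 to 0.18, -0.05 to 0.06 and 0.13 to 0.23 for the 3 contrasts in turn. The trended robust prior, the compared samples alone, the filter on dim probe sets and the mean of all probe sets of a gene kept each of these counts within 1.5 times.

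Between DMSO and RA 1 of 4 same-number pairs correlated over 0.1 and between RA and LE135 2 of 4. Of the 12 samples 4 correlated best with their own number. Without a link by number in the labels, these correlations cannot settle whether the numbers pair the pools there either. With the replicate block the F test of COL24A1 had adjusted p 0.0500 and ITGA11 under RA 0.0670; RA minus DMSO then called 2 members. Between DMSO and LE135, where all 4 same-number pairs correlated over 0.1 but pairing by number was not settled, the block changed no member's call. The COL24A1 call under RA held in all 21 alternatives run on it. No called member turned its direction; 115 values of uncalled members changed sign and stayed uncalled. The causes were not tested. Over all probe sets, in the fits that left out 1 pool, the calls of the F test ran from 261 without RA 1 to 700 without DMSO 4. Those of RA minus DMSO ran from 231 to 671, those of LE135 minus DMSO from 220 to 742, and those of RA minus LE135 from 1 to 13. Without both DMSO 4 and LE135 4 these calls numbered 1478, 1530, 1027 and 43 in turn. The 4 pools per treatment, dim probe sets with no detection call, and the spread of DMSO 4 limit what these comparisons can show.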
